A study of Mus musculus with 7 samples.

Results

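Among the ADAMTS family of secreted metalloproteases, 10 genes not known to encode versican-cleaving enzymes were looked up in arrays of embryonic mouse palate: Adamts2, Adamts3, Adamts6, Adamts7, Adamts10, Adamts12, Adamts14, Adamts17, Adamts18 and Adamts19. Probes were taken by gene symbol from the platform annotation, which gave 1 probe each for 6 of these 10 genes among 16565 genes named on the array. Adamts2, Adamts6, Adamts10 and Adamts14 have no probe under their symbol or gene ID in that annotation and were not analysed here. Palatal shelves, the outgrowths of the upper jaw that later lift and join as the palate, came from embryos at E13.75. One group held 3 wild-type C57BL/6 embryos. The other held 4 embryos of genotype Adamts9+/-:bt/bt, which lack 1 copy of Adamts9 and carry the belted allele (bt) of Adamts20 on both chromosomes, and whose strain is also labelled C57BL/6. Each embryo was read on 1 Illumina array, and the series asks how versican cleavage by ADAMTS proteases bears on palatal closure and mesenchymal growth.

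ADAMTS proteases are made as inactive precursors, are cut by furin-like convertases, and act in the extracellular matrix, where thrombospondin-type repeats outside the catalytic domain help to select substrates. Some members cut chondroitin sulfate proteoglycans such as versican and aggrecan, and ADAMTS9 and ADAMTS20 belong to these. The members described here have other known roles. ADAMTS2, ADAMTS3 and ADAMTS14 remove the aminopropeptides of fibrillar procollagens, ADAMTS7 and ADAMTS12 cleave cartilage oligomeric matrix protein, and ADAMTS6, ADAMTS10 and ADAMTS17 are tied to fibrillin microfibrils.

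Of the 6 members with a probe, Adamts7 and Adamts18 were lower in the mutant shelves and the other 4 did not pass or were too dim to test. Adamts7 was 1.53-fold lower and Adamts18 was 1.23-fold lower on the normalized scale. In all, 5 of the 6 members passed the filter on dim probes (mean log2 value above 6.10, the 40th percentile of all features), and 2 of these 5 had an adjusted p under 0.05 by limma, with the other 3 not past it. Over all detected features 36.8% passed in either direction, 19.8% as lower and 16.9% as higher, so 2 of 5 is close to the share of the whole array. The median log2 difference (mutant minus wild type) of the 5 detected members was -0.14, against 0.00 over all detected features. In bulk tissue, fewer cells that express a gene and less RNA per cell cannot be told apart.

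The arrays differed before normalization and the genotype could not be checked on them. The upper quartile of raw intensity averaged 253.5 ± 20.8 over 3 wild-type arrays and 199 ± 13 over 4 mutant arrays (SD), without overlap (exact two-sided permutation p = 0.0286, the lowest value possible with 35 splits). Across detected features, Pearson correlations were lowest between the groups (0.948 to 0.977), higher within wild type (0.982 to 0.993) and highest within the mutants (0.993 to 0.994). Adamts9 has no probe in the annotation, and Adamts20 had means of 5.98 and 5.99 in the groups, below the limit of 6.10. The tissue label was checked against 12 markers of palatal mesenchyme, of which 11 were detected. Osr2, a transcription factor of palatal mesenchyme, lay between 10.73 and 11.52 on every array. Lhx6 was below the limit and Pax9, at 6.00 to 6.39, was close to it. These markers were not level between the groups. Osr2 was lower on every mutant array than on every wild-type array, by a log2 difference of -0.42 (limma adjusted p = 0.00926). Of the 11 detected markers 5 were lower, among them Msx1 (-1.27) and Twist1 (-1.23), and 6 did not pass.

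For 2 measured members the promoter, from 250 bases before to 50 after the transcript start, is shown because the pair holds the detected member with a call and a RefSeq promoter entry, Adamts18, and the detected member whose difference lay nearest to 0, Adamts17. Both are from RefSeq on GRCm38.p6 and are written along the strand of the gene. Capitals mark the GC box (GGGCGG or CCGCCC, searched on both strands). The Adamts18 window is chr8:113848790-113849089, minus strand, and the Adamts17 window is chr7:66839485-66839784, plus strand.
Adamts18: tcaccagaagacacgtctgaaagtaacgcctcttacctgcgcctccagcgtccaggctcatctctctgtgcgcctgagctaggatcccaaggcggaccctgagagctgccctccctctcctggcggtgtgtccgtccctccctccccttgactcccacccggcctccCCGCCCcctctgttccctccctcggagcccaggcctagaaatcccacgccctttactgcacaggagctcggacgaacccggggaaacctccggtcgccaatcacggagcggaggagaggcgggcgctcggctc
Adamts17: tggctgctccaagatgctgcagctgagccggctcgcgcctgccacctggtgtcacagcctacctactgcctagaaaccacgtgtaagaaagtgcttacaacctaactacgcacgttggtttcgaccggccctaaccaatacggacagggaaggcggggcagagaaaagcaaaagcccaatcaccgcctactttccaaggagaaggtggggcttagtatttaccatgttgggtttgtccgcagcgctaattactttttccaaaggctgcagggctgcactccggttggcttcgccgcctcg
The Adamts18 window held 1 GC box and 22 CpG dinucleotides, and the Adamts17 window held 0 GC boxes and 17 CpG dinucleotides. A GC box was present in 35.7% of 32851 promoter windows of the same length, and the median window held 7 CpG dinucleotides. The CCAAT box (CCAAT or ATTGG) was found once in Adamts18 and 2 times in Adamts17 and stands in 37.4% of windows, and neither window held TATAAA in either orientation, which stands in 13.6%. Matching was by letters alone and says nothing of which factors bind. Of the 10 members 6 had an entry in the promoter table.

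**Figure D1:**
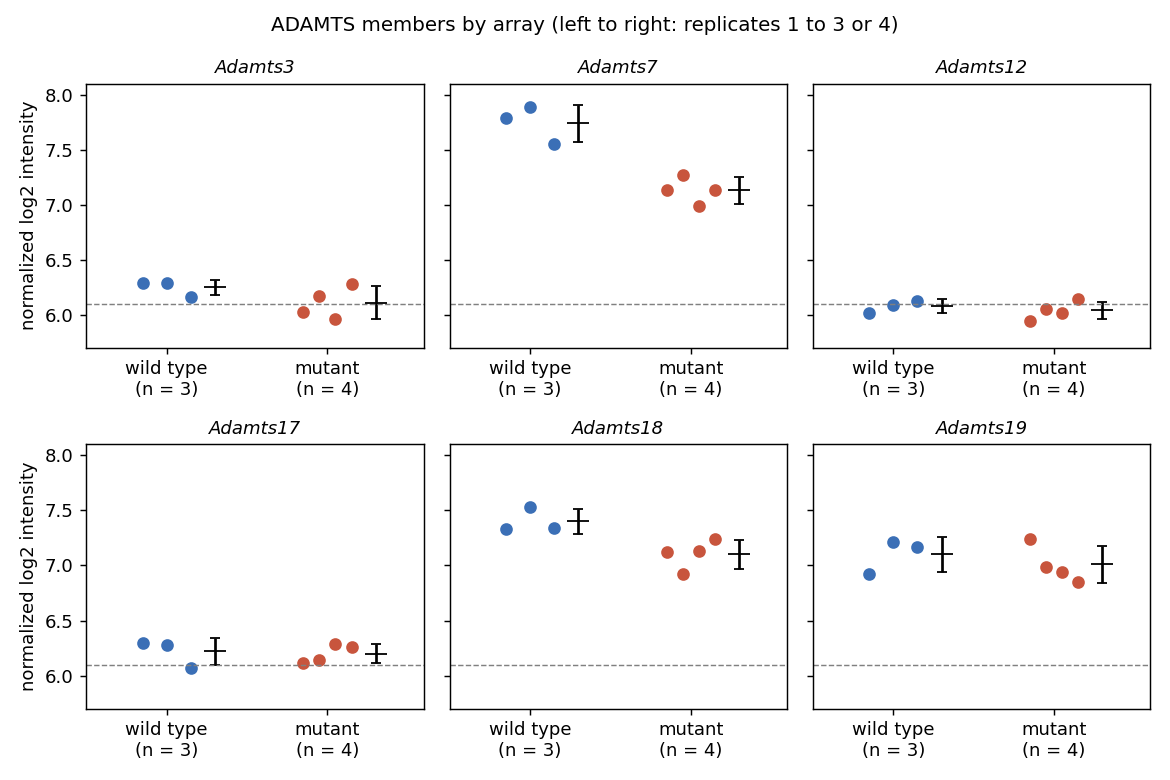
Normalized log2 intensity (y axis) of the 6 members with a probe on each array, with wild-type arrays in blue (n = 3) and mutant arrays in red (n = 4), group means with SD beside the points and the detection limit of 6.10 as a dashed line. For Adamts7 and Adamts18 every mutant array lies below every wild-type array, and for the other 4 members the groups overlap.

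Adamts7 encodes a protease of cartilage and vascular smooth muscle that carries chondroitin sulfate on a mucin-like domain. It read 7.79, 7.89 and 7.55 log2 units on the wild-type arrays, in order of replicate number, and 7.13, 7.27, 6.99 and 7.13 on the mutant arrays. Every mutant array was lower than every wild-type array, and wild-type replicate 3 was the lowest of its group. Such a separation was seen in 42.6% of all detected features, and in 22.9% with the mutants lower. Mutant minus wild type was -0.61 on the log2 scale (95% interval -0.83 to -0.39, SE 0.10, limma adjusted p = 0.00138, exact permutation p = 0.0286). An absolute difference at least this large was seen in 8.84% of detected features. On the scale of raw intensity the means were 236.7 ± 48.2 (SD, n = 3) and 121.4 ± 12.8 (SD, n = 4), a ratio of 1.95, beside a ratio of 1.27 between the upper quartiles of the groups. The background offset of 50 intensity units pulls differences of dim probes towards 0, and with an offset of 16 that value was -0.76. Without wild-type replicate 3 it was -0.71 (adjusted p = 0.00028), and with that array as the lone wild type it was -0.42, a value given without a test since 1 array has no spread.

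Adamts12, the closest relative of Adamts7 in the family, was below the detection limit. It read 6.02, 6.09 and 6.13 in wild type and 5.94, 6.05, 6.02 and 6.14 in the mutants. The groups overlapped, with the highest value of all on a mutant array. The difference of -0.04 was no larger than the spread within groups (exact permutation p = 0.571). Comp, the gene of cartilage oligomeric matrix protein, which both proteases cleave, was at the limit in both groups, with means of 6.10 ± 0.02 (n = 3) and 6.14 ± 0.05 (n = 4, SD).

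Adamts18 encodes a protease whose loss in humans causes eye disease. It read 7.33, 7.53 and 7.34 in wild type and 7.12, 6.92, 7.13 and 7.24 in the mutants. The groups did not overlap, but the gap between the highest mutant array and the lowest wild-type array was small beside the spread of the mutant values. Mutant minus wild type was -0.30 (95% interval -0.50 to -0.10, SE 0.09, limma adjusted p = 0.0248), while the exact permutation p was 0.0571. An absolute difference at least this large was seen in 27.3% of detected features. The call depended on single arrays. Leaving out wild-type replicate 2 gave -0.24 (adjusted p = 0.0914), and leaving out mutant replicate 3 gave -0.31 (adjusted p = 0.0515). Adamts16, its closest relative, is not among the members and its overall mean was below the limit, with a mean of 5.97 ± 0.11 in the 4 mutants against 6.12 ± 0.11 in the 3 wild types (SD, exact permutation p = 0.171).

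Adamts19, whose loss causes heart valve disease in humans and mice, was detected and did not pass. It read 6.92, 7.21 and 7.17 in wild type and 7.24, 6.99, 6.94 and 6.85 in the mutants. The groups overlapped, with mutant replicate 1 above every wild-type array and mutant replicate 4 below every one. Mutant minus wild type was -0.09 (95% interval -0.34 to 0.15, SE 0.11, adjusted p = 0.538), so a fall of the size seen for Adamts7 lies outside its interval. Adamts17, whose variants in humans cause a Weill-Marchesani-like disorder of short stature and lens displacement, read 6.30, 6.28 and 6.07 in wild type and 6.11, 6.14, 6.29 and 6.26 in the mutants. These values lie close to the detection limit and overlap. Mutant minus wild type was -0.01 (95% interval -0.19 to 0.16, SE 0.08, adjusted p = 0.907).

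Adamts3, a procollagen aminopropeptidase that also takes part in activating the lymphatic growth factor VEGF-C, was dim as well. It read 6.29, 6.29 and 6.16 in wild type and 6.03, 6.17, 5.96 and 6.28 in the mutants. The mutant arrays ran lower but overlapped with wild type, and mutant replicates 1 and 3 were below the detection limit. Mutant minus wild type was -0.14 (95% interval -0.33 to 0.06, SE 0.09, adjusted p = 0.246).

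**Figure D2:**
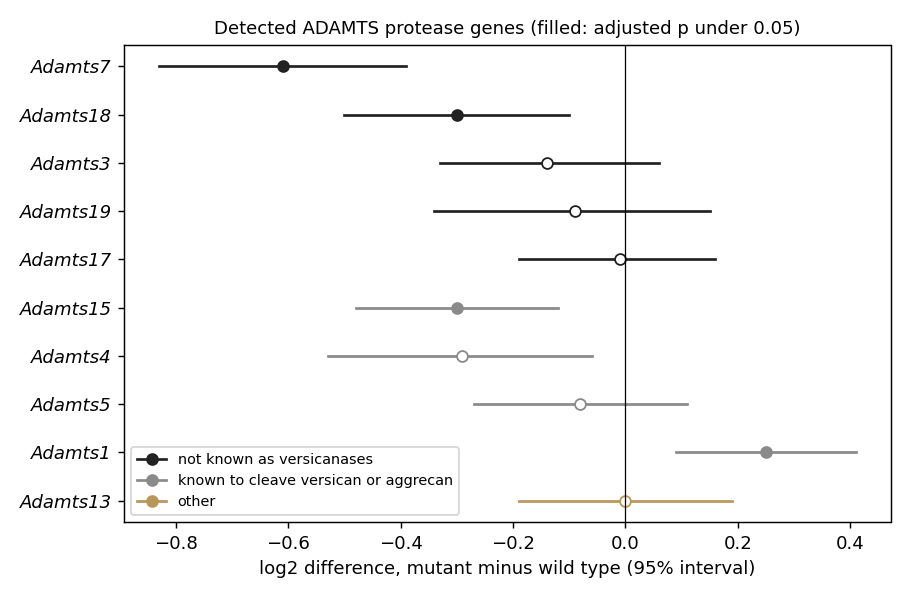
Log2 difference between mutant and wild type (x axis) with its 95% interval for each detected ADAMTS protease gene, filled where the adjusted p is under 0.05. Adamts7 lies at -0.61 and Adamts18 at -0.30, the intervals of Adamts3, Adamts17 and Adamts19 include 0, and Adamts1 lies on the other side at 0.25.

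Calls among the proteases known to cleave versican or aggrecan went in both directions, 1 higher and 1 lower. Of 7 listed, 6 have a probe and 4 were detected, with 2 not past the threshold and a median log2 difference of -0.19. Over all detected features 16.9% were higher and 19.8% lower. With each array centred on its median 2 of the list were lower and 1 was higher, where 35.7% of all features were lower. Adamts15 was lower, by a log2 difference of -0.30 (adjusted p = 0.0185), and Adamts1 was higher, by 0.25 (adjusted p = 0.0246). Leaving out wild-type replicate 1 ended both calls, at -0.20 for Adamts15 (adjusted p = 0.0576) and 0.20 for Adamts1 (adjusted p = 0.0986). The Adamts1 call also ended when wild-type replicate 2 (0.22, adjusted p = 0.0865), mutant replicate 2 (0.24, adjusted p = 0.0554) or mutant replicate 3 (0.23, adjusted p = 0.0658) was left out. Adamts1 lay near the limit of 6.10 in wild type, at 6.08, 6.10 and 6.31, and was not tested with the filter at the 60th percentile. Adamts4 differed by -0.29 (SE 0.10, limma adjusted p = 0.0513), a size like that of Adamts15. Adamts13, the protease that cuts von Willebrand factor, differed by 0.00 (SE 0.08, adjusted p = 0.98).

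The known substrates of the procollagen aminopropeptidases, and the enzymes that cut the other end of the same procollagens, did not move together. Of 14 genes with a probe 10 were detected, 3 higher and 3 lower, with a median of -0.02. Over all detected features 16.9% were higher and 19.8% lower. Without wild-type replicate 1 the median was 0.19 over 11 detected genes. With each array centred on its median 1 gene was higher and 3 were lower, where 35.7% of all features were lower. Pcolce and Pcolce2, both enhancers of procollagen C-proteinase, went opposite ways. Pcolce2 read 6.60, 6.46 and 7.05 in wild type and 7.74, 7.88, 7.83 and 7.83 in the mutants, a rise of 1.12 (SE 0.13, adjusted p = 0.000279). Pcolce fell from 9.12 ± 0.37 in 3 wild types to 8.31 ± 0.11 in 4 mutants (SD), a log2 difference of -0.82 (SE 0.15, adjusted p = 0.00319). Bmp1, the C-proteinase itself, fell by 0.33 (SE 0.08, adjusted p = 0.0101). Col2a1, the main collagen of cartilage and also a marker of it here, read 11.44, 10.54 and 12.05 in wild type and 10.28, 9.95, 8.92 and 9.92 in the mutants. The groups did not overlap and both spread widely, with a log2 difference of -1.57 (SE 0.38, adjusted p = 0.012). Col3a1, a chain of the fibrillar collagen of soft tissue, rose by 0.45 (SE 0.09, adjusted p = 0.00422), and with each array centred on its median the difference was 0.14 (adjusted p = 0.246). Col5a2, a chain of a collagen that joins the same fibrils, rose by 0.31 (SE 0.10, adjusted p = 0.0335), a call that ended without wild-type replicate 2 or 3, without mutant replicate 2, 3 or 4, and with median centring.

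Genes of fibrillin microfibrils and elastic fibres, the matrix to which ADAMTS6, ADAMTS10 and ADAMTS17 are tied, were lower or did not pass. Of 15 listed, 13 have a probe and 10 were detected, with 5 lower, 5 not past the threshold and a median of -0.33, against 19.8% of all features lower. With each array centred on its median the list again had 5 lower, against 35.7% of all features. Without wild-type replicate 3 it had 6 lower and 1 higher, and without wild-type replicate 1 or 2 it had 4 lower. Emilin2, an elastic fibre glycoprotein, read 8.69, 8.68 and 8.06 in wild type and 7.14, 7.38, 7.27 and 7.41 in the mutants. The groups were well apart, and the log2 difference was -1.18 (SE 0.15, adjusted p = 0.000515). Its relative Emilin1 fell by 0.83 (SE 0.14, adjusted p = 0.00184), the microfibril-associated gene Mfap4 by 0.82 (SE 0.16, adjusted p = 0.00469) and the latent TGF-beta binding protein gene Ltbp3 by 0.40 (SE 0.07, adjusted p = 0.00201). Fbn2, the fibrillin of embryonic tissue, differed by -0.26 (SE 0.12, adjusted p = 0.136), and Eln, which encodes elastin, by 0.01 (SE 0.13, adjusted p = 0.972). With replicate 3 as the lone wild type the median of this list was -0.06, again without a test.

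The ADAMTS-like proteins, which share the repeats but have no protease domain, held 4 detected genes. By the brightest feature of each gene only Adamtsl2 passed, lower by a log2 difference of -0.17 (SE 0.06, adjusted p = 0.0461). It passed in 5 of the 16 alternative settings and was not tested with the filter at the 60th percentile. Leaving out any 1 array ended the call. Among other substrates and partners 1 of 4 detected genes was higher and 1 lower. For both lists, the shares over all detected features were 16.9% higher and 19.8% lower. Vegfc, the growth factor that ADAMTS3 helps to activate, fell by 0.29 (SE 0.08, adjusted p = 0.0171), and Reln, a secreted guidance protein that ADAMTS3 cleaves in the brain, rose by 0.28 (SE 0.08, adjusted p = 0.0223). Vegfc did not pass once wild-type replicate 1 (-0.30, adjusted p = 0.0505) or 2 (-0.23, adjusted p = 0.0648) was left out. Reln did not pass once wild-type replicate 3 (0.20, adjusted p = 0.0514) or mutant replicate 3 (0.25, adjusted p = 0.0592) was left out, or with median centring (0.08, adjusted p = 0.553).

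Of the genes that mature, modify, inhibit or clear these proteases 6 were detected, with 2 lower, 4 not past the threshold and a median of -0.21. Over all detected features 19.8% were lower. Reck, a membrane-anchored inhibitor of metalloproteases, read 9.12, 8.94 and 8.77 in wild type and 8.03, 8.18, 7.83 and 8.03 in the mutants. The mutant arrays lay well below, by -0.93 (SE 0.10, adjusted p = 0.000265). Furin, the convertase that removes the propeptide, fell by 0.30 (SE 0.07, adjusted p = 0.0129), which did not pass once wild-type replicate 1 was left out (-0.26, adjusted p = 0.0573). Timp3, the tissue inhibitor best known to act on ADAMTS proteases, differed by 0.18 (SE 0.07, adjusted p = 0.078).

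**Figure D3:**
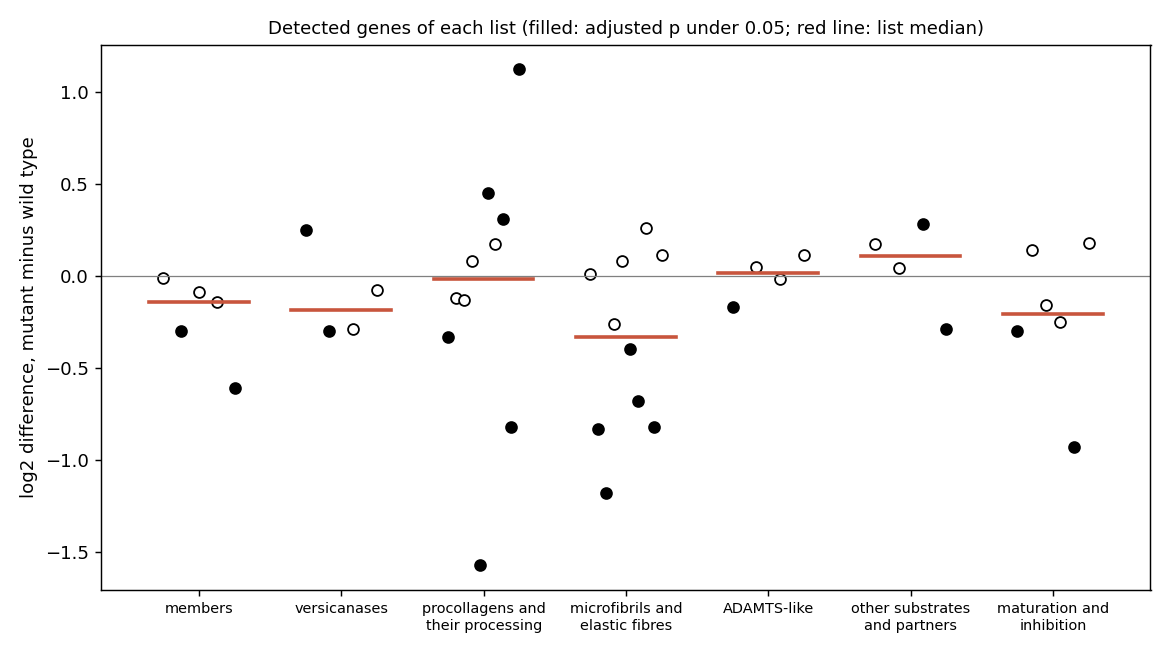
Log2 difference between mutant and wild type (y axis) for the detected genes of each list, filled where the adjusted p is under 0.05, with the median of each list as a red line. The members reach down to -0.61, procollagen genes spread from -1.57 to 1.12, and among the lists drawn the microfibril list has the lowest median, -0.33.

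Markers of other cell types also differed between the groups. Sums below are of normalized intensity, with the background offset included. The counts below stand beside 16.9% of all detected features higher and 19.8% lower, and 35.7% lower with median centring. Of 14 detected neuron markers 11 were higher in the mutants and 3 did not pass, with a summed level of 2119 to 3795 in wild type and 9409 to 13330 in the mutants, and with Nefl and Snap25 below the limit. Of 11 detected markers of palatal mesenchyme 5 were lower and 6 did not pass (8 lower with median centring), with sums of 11161 to 13763 and 6325 to 8180. Of 7 endothelium markers 5 were lower and 2 did not pass, with sums of 1915 to 2323 and 1518 to 1843. Of 6 skeletal muscle markers 1 was higher and 5 did not pass, with sums of 1418 to 4158 and 4293 to 6859. That muscle call ended when wild-type replicate 1 or 2 was left out or arrays were centred on their median, and without wild-type replicate 3 there were 2 such calls. The sums overlapped between the groups for markers of epithelium, glia, cartilage and bone, red cells and leukocytes, though only 2 of 6 listed glia markers have a probe and 1 was detected. Within these lists single genes still passed. In cartilage and bone, 7 markers were detected, with 1 lower (Col2a1), 1 higher and 5 not past the threshold. The higher one was Ibsp, which encodes bone sialoprotein, by 1.66 (adjusted p = 0.00281), so that sum joins opposite changes. Signs were mixed within each tissue. The cartilage gene Matn1 differed by 1.03 (limma adjusted p = 0.0559) and the bone gene Alpl by -0.47 (limma adjusted p = 0.0648). Among 6 epithelium markers 1 was higher and 5 did not pass, with a median log2 difference of -0.10. With median centring 1 was higher and 2 were lower. The higher one was the epithelial cadherin gene Cdh1, by 0.56 (adjusted p = 0.00172), while Krt8 differed by -0.41 (limma adjusted p = 0.0678). Lyz2, a lysozyme gene of myeloid cells, was higher by 0.45 (adjusted p = 0.00638), and the other 2 detected leukocyte markers did not pass. Hbb-y, an embryonic globin gene, was lower by a log2 difference of -0.22 (adjusted p = 0.0436), and the other 4 detected red cell markers did not pass. The Hbb-y call ended without wild-type replicate 1, 2 or 3 and without mutant replicate 1, 2 or 3. It also ended on the authors' log2 values (limma adjusted p = 0.0504), with an offset of 16 (0.0727) and with no filter on dim features (0.0507). The part of these cell types in the values of Adamts7, Adamts18 and the gene lists above was not tested.

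Among 10058 detected features with a named gene, the profiles most like that of Adamts7 over the 7 arrays, by the root mean square difference between log2 values centred on each gene's mean, were those of Cdk5rap2 (0.033), which encodes a centrosome protein, Fblim1 (0.040), which encodes a filamin-binding adhesion protein, and Cep89 (0.040), which encodes a centrosomal protein. Adamts7 itself varied by 0.33 on this measure about its own mean. The nearest profiles to Adamts18 were 1 of the features of Edem2 (0.028), Hirip3 (0.038) and Ccs (0.048), beside its own variation of 0.18. These 6 features were all lower in the mutants, by log2 differences of -0.26 to -0.62. That direction and size follow from the way they were picked, since Adamts7 and Adamts18 were themselves lower.

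**Figure D4:**
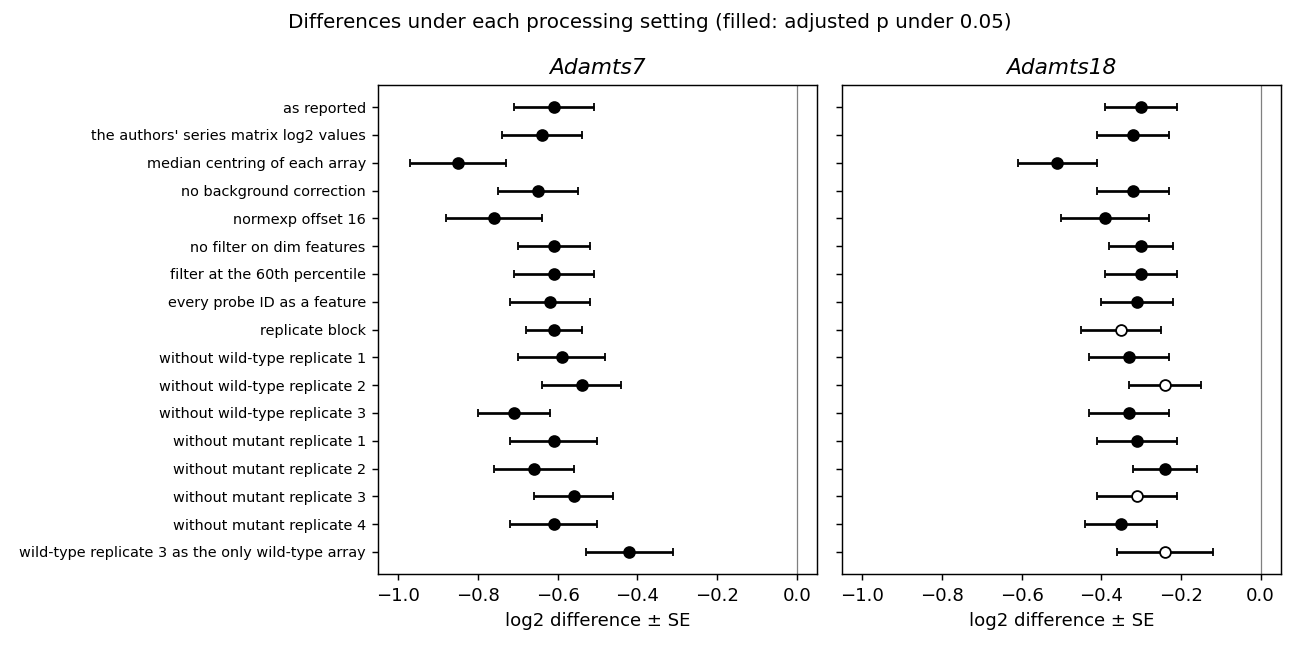
Log2 difference with its SE (x axis) for Adamts7 and Adamts18 under each processing setting (y axis), filled where the adjusted p is under 0.05. Adamts7 runs from -0.85 to -0.42 and is filled throughout, and Adamts18 runs from -0.51 to -0.24 with 4 open points. The setting with 1 wild-type array takes its spread from the mutants alone, and its fill is not counted as a test.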

How the data were processed

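The deposited files of the 7 arrays hold linear probe intensity, not normalized between arrays, and per the labels' protocols biotin-labelled cRNA was made with the Illumina TotalPrep kit. The authors' deposited table gives log2 values for these arrays, normalized between arrays in a way that the sources used here do not give, with every column at a median of 6.07 over distinct features and no known centring of genes. The labels do not state the scanner software or any background step before deposit, and detection p-values were not used. Since many genes repeat a value over several probe IDs, the 18116 distinct rows among 25695 IDs served as features. From these intensities, normexp background correction (offset 50), log2 and quantile normalization followed. Features with a mean above the 40th percentile (10869) were compared with limma 3.58.1 in R 4.3.3 (2 groups, two-sided, no covariate), with Benjamini-Hochberg adjustment over all of them, and single values with exact permutation tests over 35 splits. The fit was tested on simulated data with independent noise for each feature, which does not cover shifts shared across an array. Where a gene has several features, the one with the highest mean was used. Samples were grouped by their titles, and the design text gives separate embryos. The number of arrays limits the precision. Named genes were all members, up to 4 genes of each list past the threshold by smallest p or else the first, and the 3 profiles nearest to each member with a call. Adamts4, Adamts8, Adamts16, Adamts20, Comp, Fbn2, Eln, Timp3, Thsd4, Col2a1, Col5a2 and single cell type markers were named outside that rule after their values were seen. Members and lists were chosen with earlier results of these data known.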

Additional observations from a re-analysis of the deposited data

How the results depend on the processing

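Adamts7 was lower in all 16 alternative settings run, with log2 differences from -0.85 (median centring) to -0.42. It was past the threshold in every setting that keeps more than 1 wild-type array, with limma adjusted p from 0.00028 to 0.00834. In 1 of the 16, which keeps only wild-type replicate 3 and gives the value -0.42, the spread comes from the mutants alone. The lone array is then assumed to vary like them, so only its differences are given. Adamts18 was lower in all 16 and past the threshold in 12, all of which keep more than 1 wild-type array. It did not pass with the replicate block or without wild-type replicate 2 or mutant replicate 3. With the lone wild-type array it lay at -0.24, and with single arrays left out it ranged from -0.35 to -0.24. The number of members past the threshold was 1 to 2 with single arrays left out. Adamts3 and Adamts19 kept their sign and did not pass under any setting in which they were tested. Adamts17 changed sign, at 0.13 with that single wild-type array and from -0.09 to 0.03 with single arrays left out, and never passed. Adamts12 lay between -0.09 and 0.00 and was tested only with no filter on dim features (adjusted p = 0.764). Adamts3 and Adamts17 were not tested with the filter at the 60th percentile. With median centring the median of all features shifted by -0.14, Adamts7 lay at -0.85 and Adamts18 at -0.51, and the calls over all features split into 758 higher and 3875 lower, against 1840 and 2155. These calls numbered 6300 with every probe ID as a feature, since repeated rows were then counted again, and 1743 with only replicate 3 kept for the wild type, against 3995. No clear pairing by replicate number was seen (correlations of same-numbered deviations -0.20, -0.16 and 0.065), though so few arrays cannot exclude it. Only wild-type replicate 3 had the mutant array of its own number as its best match. With the replicate number as a block, 2861 features and 1 member passed, and Adamts18 lay at -0.35 (adjusted p = 0.0586). With the lone array Vegfc lay at -0.17, Adamts1 at 0.10, Adamts15 at -0.21, Bmp1 at -0.23, Furin at -0.23, Lyz2 at 0.27 and Mfap4 at -0.45. With the block Col2a1 did not pass (-1.62, adjusted p = 0.0525). The block also ended the calls of Adamts15 (-0.29, limma adjusted p = 0.0549), Bmp1 (-0.32, 0.0578) and Lyz2 (0.40, 0.0526). It likewise ended those of Reln (0.29, limma adjusted p = 0.101), Col5a2 (0.26, 0.136) and Adamtsl2 (-0.15, 0.196). Adamts3, Adamts12 and Adamts17 lie so near background that changes in them are hard to see.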

Other observations

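Thsd4, which encodes an ADAMTS-like protein that promotes fibrillin microfibril assembly, is read by 2 features that disagree. The brighter one averaged 7.95 ± 0.15 log2 units over 3 wild-type arrays and 8.06 ± 0.15 over 4 mutant arrays (SD), a difference of 0.11 (limma adjusted p = 0.417). The dimmer one read 6.72, 6.73 and 6.62 in wild type and 6.29, 6.23, 6.30 and 6.21 in the mutants, a difference of -0.43 (SE 0.06, limma adjusted p = 0.000536). Adamts8, a protease that cuts aggrecan, was below the detection limit at 6.09 ± 0.04 in 3 wild types and 6.03 ± 0.07 in 4 mutants (SD).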
